A study of Mus musculus with 4 samples.

Results

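These are the CD8 T cells of transplanted mouse hearts in which no transcript of Mki67 or Top2a was read, which encode a nuclear protein of dividing cells and the DNA topoisomerase of mitosis. A barcode was taken when it passed 3 quality limits (at least 500 unique molecular identifiers, or UMIs, at least 300 genes and at most 20% of UMIs from mitochondrial genes) and held at least 2 UMIs of the CD3 genes Cd3d, Cd3e and Cd3g together, at least 2 of Cd8a and Cd8b1 together, none of Cd4, at most 2 of the macrophage genes Csf1r, Fcgr1 and Cd68 together, and none of Mki67 or Top2a. In all, 421 of 30895 quality-passing barcodes met these terms. The values that chose the cells are those genes' own counts, so the levels of these genes are not results. The CD4 cells set beside them met the same terms on CD3, macrophage, Mki67 and Top2a counts but held at least 1 UMI of Cd4 and none of Cd8a or Cd8b1, and numbered 310.

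The study asked how the immune receptor VISTA on macrophages shapes inflammation when a graft is attacked by the host. Its labels give 3 libraries from allogeneic heart grafts, placed into genetically different mice, and 1 library from an isogeneic graft, whose donor and recipient match genetically, all at day 5 after transplantation. Grafts were digested with enzymes to free the cells, and no sorting step, strain, sex, age or treatment aimed at VISTA is named. The labels do not say whether the 3 allogeneic libraries came from separate animals. Every p-value below therefore measures only variation among these libraries, which may be technical. In fits with the library as a block, it is the variation of the class difference from library to library.

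CD8 T cells recognise peptides held on class I molecules and kill the cell that shows them. They do so by releasing granules in which perforin opens the target's membrane and granzymes, a family of proteases, trigger its death, and they also release interferon gamma and chemokines. A CD8 cell that has not yet met its antigen instead expresses genes for homing to lymph nodes and for long life, such as Ccr7, Tcf7 and Il7r, while long stimulation brings inhibitory receptors such as PD-1 and TIM-3, a state called exhaustion. T cells of the host, killer cells among them, are known to drive the acute rejection of transplanted hearts.

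Replicate 1 held 134 of these cells among 4983 quality-passing barcodes (2.69%, Wilson 95% interval 2.28 to 3.18). Replicate 2 held 221 among 8215 (2.69%, 2.36 to 3.06), and replicate 3 held 66 among 6311 (1.05%, 0.823 to 1.33). The isograft library held 0 among 11386, which allows a share of up to 0.0263%. These intervals and limits cover counting error only. Replicates 1 and 2 thus had the same share and replicate 3 the lowest of the allografts, with a mean of 2.14% ± 0.949 (SD, n = 3). An exact two-sided permutation test of allogeneic against isogeneic gave p = 0.25, the smallest that 4 libraries allow. Among all cells with at least 2 CD3 UMIs the share was 11.4%, 12.5% and 9.28% in the allografts (mean 11.1% ± 1.62, n = 3), so the lower value of replicate 3 among all barcodes was less marked within T cells. In the isograft 0 of 90 CD3 cells qualified, which allows up to 3.33%, and 77 of those 90 held no UMI of Cd4, Cd8a or Cd8b1. No gene of the CD8 cells could therefore be compared between allografts and isograft, and the results below are from the 3 allografts.

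The CD8 cells had a median of 7876, 6611 and 6849 UMIs in replicates 1, 2 and 3, and the CD4 cells 6010, 4730 and 4528. The CD4 cells numbered 65, 167 and 69 in these libraries, of which 41, 81 and 16 held at least 2 Cd4 UMIs. Most CD4 cells of replicate 3 thus passed on 1 Cd4 UMI. Summed over the class, the CD8 cells gave 1123402, 1575555 and 635675 UMIs. The 3 libraries were not copies of each other: between their CD8 sums the chi-square per gene was 2.41 for replicates 1 and 2, 9.97 for 1 and 3, and 11.7 for 2 and 3. They shared 7 to 30 cell barcodes by pair of libraries, and no CD8 cell shared its barcode with a CD8 cell of another library.

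The T cell lineage, though not the CD8 label itself, was checked on genes that the choice did not use. After each cell was thinned at random to 2000 UMIs, to set depths equal, Trac, the constant part of the alpha chain of the T cell receptor, was seen in 70.0%, 65.7% and 57.8% of the cells, against 1.96%, 1.78% and 0% of endothelial barcodes of the same libraries. The endothelial barcodes were taken with no CD3 UMI and none of the leukocyte gene Ptprc, so their shares may understate stray RNA. In the CD4 cells of replicates 1 and 2 Trac was seen in 71.0% and 74.5%, so it does not tell CD8 from CD4 cells. Trdc, the constant part of the delta chain of the other T cell lineage, was seen in 0%, 0.966% and 1.56% of the CD8 cells. No UMI of Cd8b1, a gene of the choice, was found in 13.4%, 15.8% and 24.2% of the CD8 cells, which had passed on Cd8a alone. The name non-dividing held only in part. At least 1 UMI of 9 other cell cycle genes was found, after thinning, in 26.7%, 35.3% and 20.3% of the cells, against 25.8%, 27.5% and 26.2% of the CD4 cells, 13.1%, 12.9% and 15.8% of endothelial barcodes, and 79.3%, 81.3% and 75.3% of the CD8 cells with a Mki67 or Top2a UMI. Fibroblast barcodes gave 43.3%, 19.4% and 28.3%, the first from 30 cells, and natural killer cells 13.3%, 8.77% and 15.5%. The chosen cells are therefore called CD8 cells without Mki67 or Top2a, shortened to CD8 cells, and those with such a UMI Mki67/Top2a-positive CD8 cells.

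Cells just inside and just outside the limit of 2 Cd8 UMIs were alike in Gzmb in replicate 1, with 3940 CPM (counts of a gene per 1000000 UMIs of the cells summed) in the 23 cells with 2 Cd8 UMIs and 3993 CPM in the 41 cells with 1. In replicate 2 the values were 2641 CPM in 33 cells and 1885 CPM in 63 cells, and in replicate 3 they were 2265 CPM in 17 cells and 1254 CPM in 32 cells. Cells with 3 or more Cd8 UMIs had 3086, 3787 and 2797 CPM. The chemokine gene Xcl1 differed more at this edge, at 2549 CPM just inside and 87.5 CPM just outside in replicate 1, 1449.8 and 673 CPM in replicate 2, and 4189 and 531 CPM in replicate 3. Ifng, interferon gamma, read 5298 and 1074 CPM in replicate 1, 1242 and 1351 CPM in replicate 2, and 3408 and 3242 CPM in replicate 3. Cells with 1 Cd8 UMI were thus lower in Xcl1 in all 3 libraries. In Ifng they were lower in replicate 1, slightly higher in replicate 2 and close in replicate 3. These edge groups hold 17 to 63 cells, and a few cells can set such levels. In replicate 1, for example, 1 CD8 cell held 818 of the 3248 Ifng UMIs of the class.

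The main comparison asked how the effector, naive and exhaustion genes of the CD8 cells stood against those of the CD4 cells in the same grafts. Genes of the killing granules, chemokines and receptors shared with natural killer (NK) cells were higher in the CD8 cells. Of 15 naive-state genes 7 were lower, 1 was higher and 7 did not pass, and 6 of the 7 lower calls were lost when 1 library or another was left out. Across 8311 tested genes, 384 were higher in CD8 cells (4.62%) and 443 lower (5.33%) by edgeR's quasi-likelihood F-test with the library as a block, at a Benjamini-Hochberg adjusted p under 0.05. The median log2 difference over all tested genes was -0.02. Without the block the test called 28 higher and 44 lower. Left-out libraries moved the count of higher genes to 119 (without replicate 1), 95 (without 2) and 599 (without 3), and of lower genes to 127, 158 and 625. A fit with 1 library left out has fewer sums from which to judge the spread, so a call can be lost there with the difference little changed. A call not kept in such a fit does not by itself show that the difference came from the library left out. Levels are given as CPM of the UMIs summed over the class in that library, and fold changes as fitted log2 differences, CD8 minus CD4, with an approximate standard error (SE).

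Granzymes and perforin came first. Of 15 genes in the cytotoxic list 14 could be tested, and 8 were higher in CD8 cells, 1 was lower and 5 did not pass, with a median log2 difference of 1.42. Prf1 (chromosome 10, 61297833 to 61304680, mm10), the gene of perforin, read 429.9, 348 and 337 CPM in the CD8 cells of replicates 1, 2 and 3 and 41.5, 27.7 and 6.504 CPM in the CD4 cells. All 3 CD8 values lay above all 3 CD4 values, a difference of 3.88 in log2 (SE 0.25, edgeR adjusted p = 1.53e-05). Gzmb, granzyme B, the protease that starts cell death in the target, read 3155, 3686 and 2669.6 CPM against 1053, 1350.2 and 347 CPM. Its groups did not overlap either, and the log2 difference was 1.98 (SE 0.23, edgeR adjusted p = 0.000618). Gzma, granzyme A, another protease of the granule, read 736, 1372 and 661 CPM against 82.9, 66.9 and 447 CPM. Replicate 3 was the CD4 library with a high Gzma level. The log2 difference was 2.61 (SE 0.54, edgeR adjusted p = 0.0136). It was 2.41 without replicate 1 (edgeR adjusted p = 0.121), 1.72 without replicate 2 (edgeR adjusted p = 0.0520) and 3.94 without replicate 3. The call was thus not kept without replicate 1 or 2, while the direction was kept in each case.

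The promoters of Gzmb and Gzma, and of the chemokine gene Xcl1 and the receptor gene Klrk1 described further on, are shown because a core RUNX motif, the letters bound by the Runx family to which the CD8 lineage factor Runx3 belongs, lies in each. The 250 bases before the transcription start are from RefSeq on build GRCm38.p6, read 5′ to 3′ along the gene. Capitals mark matches to TGTGGTT or its reverse complement and, in Xcl1, also a match to the T-box core GGTGTGA. Gzmb is on the minus strand at chr14:56262335-56262584, Gzma on the minus strand at chr13:113100982-113101231, Xcl1 on the minus strand at chr1:164935523-164935772 and Klrk1 on the minus strand at chr6:129623865-129624114.
Gzmb: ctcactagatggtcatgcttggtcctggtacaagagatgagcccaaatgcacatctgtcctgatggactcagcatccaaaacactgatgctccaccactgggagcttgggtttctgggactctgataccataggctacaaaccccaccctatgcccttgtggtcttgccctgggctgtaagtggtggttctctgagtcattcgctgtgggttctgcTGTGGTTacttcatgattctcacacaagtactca
Gzma: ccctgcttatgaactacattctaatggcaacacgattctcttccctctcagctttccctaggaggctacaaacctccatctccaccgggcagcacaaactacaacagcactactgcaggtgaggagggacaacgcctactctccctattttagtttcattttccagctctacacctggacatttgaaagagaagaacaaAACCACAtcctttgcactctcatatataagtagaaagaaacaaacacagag
Xcl1: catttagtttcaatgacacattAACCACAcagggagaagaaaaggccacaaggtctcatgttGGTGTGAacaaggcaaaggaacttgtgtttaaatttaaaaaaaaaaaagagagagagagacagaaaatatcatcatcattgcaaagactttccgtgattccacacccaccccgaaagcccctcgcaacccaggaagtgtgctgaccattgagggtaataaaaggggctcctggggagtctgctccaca
Klrk1: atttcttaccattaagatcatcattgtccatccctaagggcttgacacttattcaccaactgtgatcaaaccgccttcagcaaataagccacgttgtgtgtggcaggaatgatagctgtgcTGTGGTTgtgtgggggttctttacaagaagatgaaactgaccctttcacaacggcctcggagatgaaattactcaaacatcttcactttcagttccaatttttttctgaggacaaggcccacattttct
The matches start 34 bases before the start site in Gzmb, 51 in Gzma, 129 in Klrk1 and 228 in Xcl1, where the T-box match is at 188. Searched on both strands, TGTGGTT was found in 4.396% of 32851 promoters of this length and in 3.41% of 8471 promoters of tested genes. It was found in 7.29% of 384 promoters of genes higher in CD8 cells and in 4.07% of 491 promoters of lower genes. GGTGTGA, searched on both strands, was found in 3.33% of all promoters, 2.80% of those of tested genes, 3.13% of those of higher genes and 3.87% of those of lower genes. The matches shown do not overlap. A match is a run of letters and not a bound site, and TGTGGTT was found in none of the promoters of Prf1, Ifng and Eomes.

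Granzyme C (Gzmc) was low but higher in CD8 cells in each library, at 53.4, 31.7 and 4.72 CPM against 8.29, 4.62 and 0 CPM (log2 difference 2.79, SE 0.41, edgeR adjusted p = 0.00222). Its UMIs came from only 9, 16 and 2 cells. Gzmk, granzyme K, read 107, 116 and 58.2 CPM against 45.6, 91.2 and 102 CPM. Its groups overlapped and the log2 difference was 0.31 (SE 0.28, edgeR adjusted p = 0.535). Genes that protect a killer cell from its own granules were among those that rose. Serpinb9, an inhibitor of granzyme B, read 193, 236 and 116 CPM against 27.0, 69.2 and 39.0 CPM (log2 difference 2.02, SE 0.22, edgeR adjusted p = 0.000462), and Serpinb6b, a related inhibitor, had a difference of 2.63 in log2 (SE 0.25). Nkg7, a granule membrane protein, read 1822, 1886 and 1230.2 CPM against 991, 1031 and 199 CPM. Here the CD4 value of replicate 3 stood far below the others, and the log2 difference of 1.40 (SE 0.26, edgeR adjusted p = 0.00862) was 0.92 without that replicate. Ctsw, a cathepsin of killer cells, had a difference of 1.43 in log2 (SE 0.20). Srgn, the proteoglycan that packs granules in many blood cells, was the member that was lower, by -0.47 (SE 0.10, edgeR adjusted p = 0.0132), a call not kept without replicate 1 (edgeR adjusted p = 0.198) or 2 (0.174 by edgeR). Cst7, Lamp1 and Tnfsf10 did not pass. Fasl, the ligand that kills through the receptor Fas, read 106, 92.0 and 29.9 CPM against 35.2, 48.5 and 39.0 CPM and did not pass (log2 difference 0.91, SE 0.28, edgeR adjusted p = 0.0662), but did so without replicate 3 (1.21, edgeR adjusted p = 0.000236) and in 5 other settings.

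**Figure D1:**
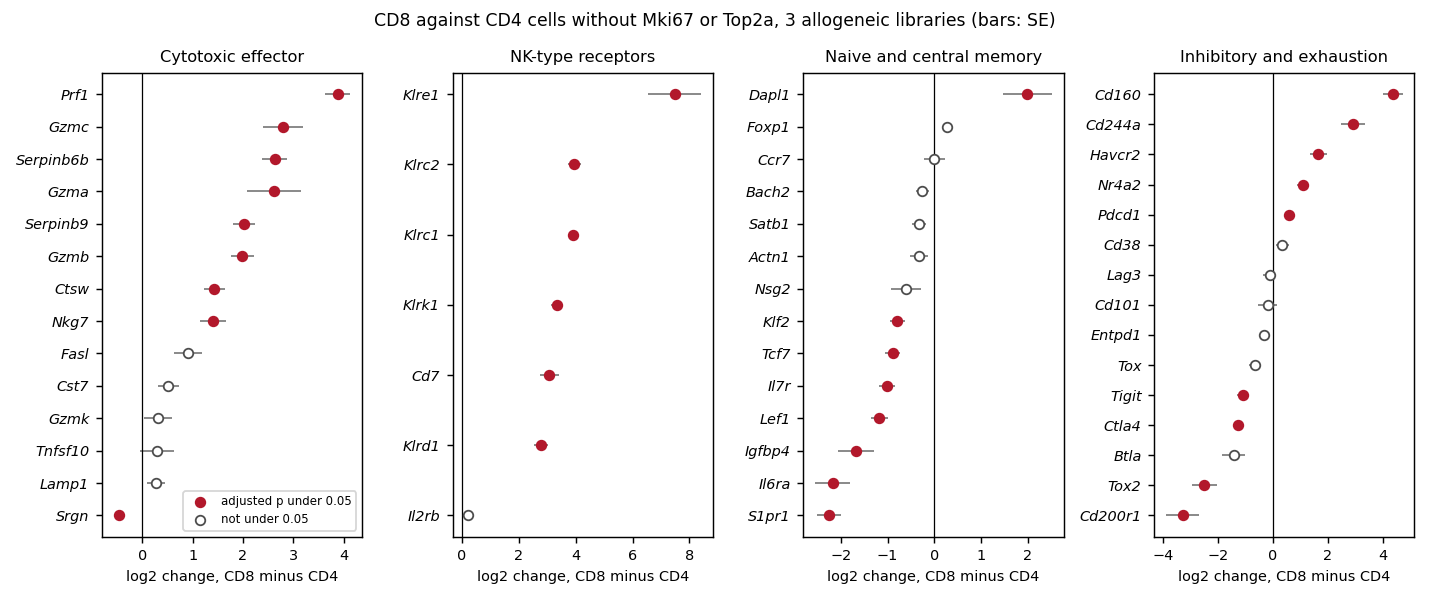
Log2 difference between CD8 and CD4 cells (x axis, CD8 minus CD4) for the tested genes of 4 lists, 1 naive gene left out, with the approximate SE as bars over 3 allogeneic libraries and filled points for an edgeR adjusted p under 0.05. The cytotoxic and NK-type lists lie mostly to the right of 0, with Prf1 at 3.88, the naive list mostly to the left, with S1pr1 at -2.26, and the inhibitory list on both sides, from Cd160 at 4.36 to Cd200r1 at -3.28.

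By cell, after thinning to 2000 UMIs, Gzmb was seen in 69.2%, 79.7% and 64.1% of CD8 cells and in 33.9%, 52.3% and 23.0% of CD4 cells. Endothelial barcodes, which should lack it, gave 3.27%, 6.01% and 1.01%, and the shares of both T cell classes stood far above these. The endothelial barcodes held no CD3 or Ptprc UMI by choice, so their shares may understate stray RNA. Thinning left out 14, 14 and 2 CD8 cells and 3, 14 and 8 CD4 cells. Before thinning the CD8 shares were 76.9%, 84.2% and 74.2%, and the median depths of the endothelial barcodes were 6587, 4876.5 and 2441 UMIs. Prf1 was seen in 40.8%, 35.7% and 26.6% of thinned CD8 cells and 8.06%, 5.23% and 1.64% of CD4 cells. Nkg7 was seen in 88.3%, 89.9% and 76.6% of CD8 cells and 56.5%, 67.3% and 24.6% of CD4 cells.

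**Figure D2:**
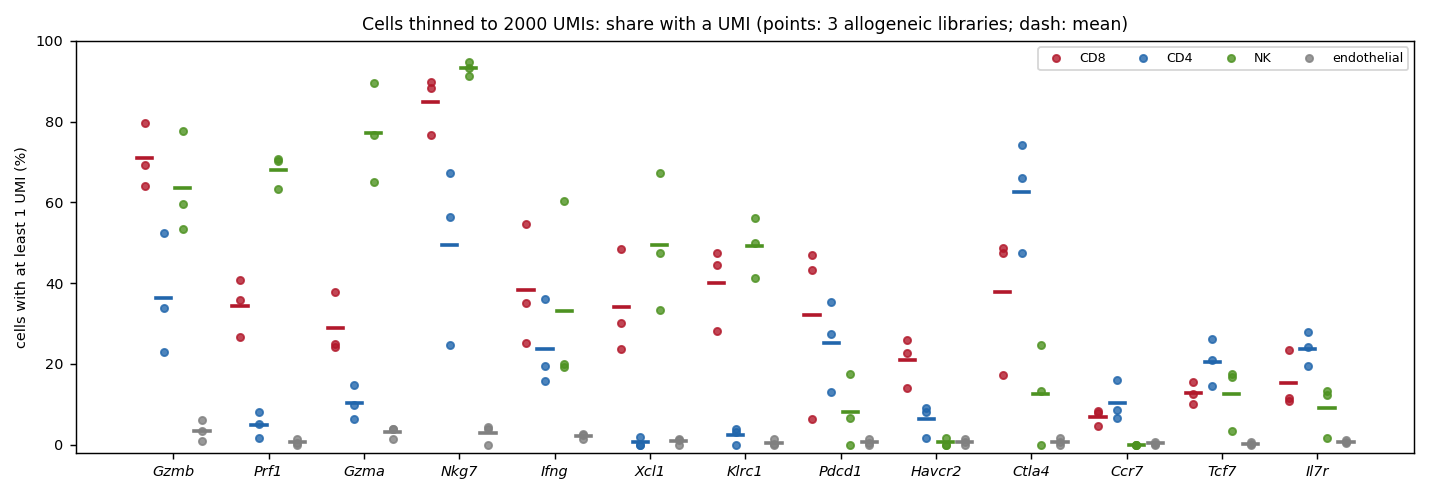
Percentage of cells with at least 1 UMI (y axis) of 13 genes after thinning each cell to 2000 UMIs, in CD8, CD4, NK and endothelial barcodes, with 1 point per allogeneic library and a dash at the mean. CD8 points stand above CD4 points for Gzmb, Prf1, Gzma, Nkg7, Xcl1, Klrc1 and Havcr2, as with Prf1 at 26.6% to 40.8% against 1.64% to 8.06%, and below them for Ctla4 within each library.

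In most of the CD8 cells at least 1 killing gene was seen without thinning. Gzmb and Prf1 were found together in 53.0%, 54.8% and 34.8% of the cells, and none of Gzmb, Gzma, Gzmk and Prf1 in 10.4%, 9.50% and 15.2%. The UMIs were shared out unevenly. The 10% of cells with the most Gzmb held 54.8%, 43.2% and 52.9% of its UMIs, while the median cell held 6.5, 11 and 5.5. For Prf1 the figures were 49.3%, 49.7% and 64.5%, and for the receptor chain gene Trac, taken as a reference, 31.5%, 29.2% and 23.9%.

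Among cytokines and chemokines 11 of 18 listed genes could be tested, with 5 higher in CD8 cells, 3 lower and a median log2 difference of 0.32. The most marked was Xcl1, which encodes the chemokine that draws XCR1-bearing dendritic cells, at 1267, 882 and 7046 CPM in CD8 cells against 10.4, 9.23 and 32.5 CPM in CD4 cells. Each CD8 library was far above every CD4 library, with a difference of 7.30 in log2 (SE 0.19, edgeR adjusted p = 9.72e-09). Ifng, interferon gamma, read 2891, 1122 and 10122 CPM against 267, 313 and 516 CPM. Both classes were highest in replicate 3, the groups did not overlap, and the log2 difference was 3.23 (SE 0.36, edgeR adjusted p = 0.000527). The 3 inflammatory chemokines Ccl3, Ccl4 and Ccl5 are added here after their values were seen. Ccl4 read 3067, 2718 and 5149 CPM against 1735, 966 and 1221 CPM (log2 difference 1.496, SE 0.18, edgeR adjusted p = 0.000746), a difference of 0.84 among cells without the 9 further cell cycle genes. Ccl5 read 2098, 2765 and 1455 CPM against 473, 895 and 969 CPM (log2 difference 1.49, SE 0.22, edgeR adjusted p = 0.00250). It was also seen in 28.1%, 22.9% and 12.8% of thinned endothelial barcodes, beside 54.2%, 65.7% and 53.1% of CD8 cells and 35.5%, 43.1% and 39.3% of CD4 cells, and the part of stray RNA in its difference was not tested. Ccl3 read 1374, 528 and 3291 CPM against 562, 337 and 160.4 CPM, with a difference of 1.97 in log2 (SE 0.52, edgeR adjusted p = 0.0382), which was 2.46 without replicate 1 (edgeR adjusted p = 0.126) and 1.02 without replicate 3.

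Cytokines of helper cells ran the other way. Il21, a helper cytokine, was listed with 1 UMI in all CD8 cells, in replicate 2, against 129, 25.4 and 52.0 CPM in the CD4 cells, a pooled ratio of 0.00503 (counting interval 0.000126 to 0.0286). Cd40lg, the ligand by which helper cells activate B cells and dendritic cells, read 0, 1.90 and 9.44 CPM against 68.4, 76.2 and 86.7 CPM (log2 difference -4.67, SE 0.47, edgeR adjusted p = 0.000299). Il10, an inhibitory cytokine, read 24.9, 14.6 and 15.7 CPM against 153, 187 and 95.4 CPM (log2 difference -3.02, SE 0.24). Tnf did not pass, at 70.3, 37.4 and 132 CPM against 64.3, 25.4 and 193 CPM.

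The chemokine and interferon RNA was held by few cells. The 10% of CD8 cells with the most Ifng, that is 14, 23 and 7 cells, held 94.2%, 91.9% and 85.0% of its UMIs, and the highest cell held 818, 480 and 1298. For Xcl1 the top 10% held 87.4%, 88.1% and 79.8%, for Ccl3 94.0%, 91.7% and 79.8%, and for Ccl4 72.3%, 79.1% and 70.7%. The summed Ifng and Xcl1 levels above thus rest on a small number of cells in each library. Counted by cell, the difference from CD4 cells was smaller for Ifng than for Xcl1. After thinning Ifng was seen in 35.0%, 25.1% and 54.7% of CD8 cells and 19.4%, 15.7% and 36.1% of CD4 cells, and Xcl1 in 30.0%, 23.7% and 48.4% against 0%, 1.96% and 0%. Both genes were found in the same cell in 32.1%, 19.9% and 47.0% of CD8 cells without thinning.

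**Figure D3:**
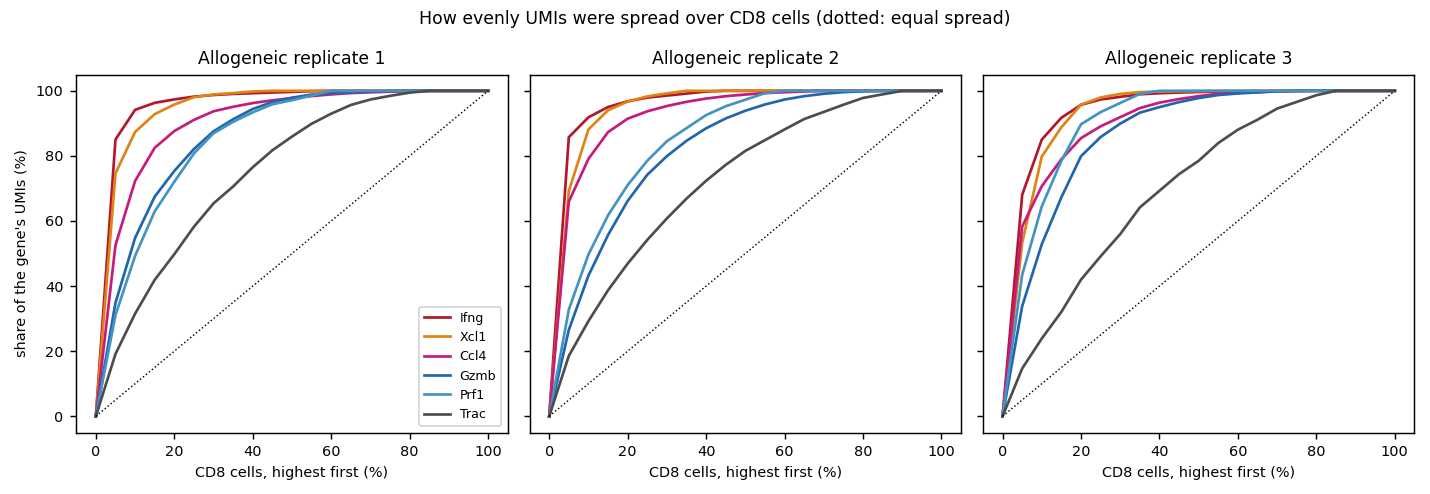
Cumulative share of a gene's UMIs (y axis, percent) against the share of CD8 cells, ranked from the cell with the most UMIs (x axis, percent), in each allogeneic library, with a dotted line for equal spread. Ifng and Xcl1 rise steepest, with 94.2%, 91.9% and 85.0% of Ifng UMIs in the top 10% of cells, and Trac lies closest to the dotted line.

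Receptors shared with NK cells set the CD8 cells apart from CD4 cells. Of 14 genes in this list 7 could be tested, of which 6 were higher in CD8 cells and none lower, with a median log2 difference of 3.34. Klrc1, which encodes the inhibitory receptor NKG2A, read 444, 389 and 156 CPM against 39.4, 21.9 and 8.67 CPM (log2 difference 3.91, SE 0.19, edgeR adjusted p = 2.31e-06). Klrk1, the activating receptor NKG2D for stress-induced ligands, read 256, 204 and 99.1 CPM against 29.0, 15.0 and 15.2 CPM (log2 difference 3.34, SE 0.22, edgeR adjusted p = 1.64e-05). Klrc2, an activating relative of Klrc1, had a difference of 3.96 in log2 (SE 0.23), and Klrd1, the partner chain CD94, had 2.79 (SE 0.24). In these genes replicate 3 was lowest in the CD8 cells, and each CD8 value lay above every CD4 value. Klre1 read 33.8, 28.6 and 11.01 CPM in CD8 cells and 0 in all 3 CD4 sums, at least 16.3-fold higher over the group when 3 counts are taken as the limit of a count of 0. Cd7, an adhesion and signalling protein of T and NK cells, read 76.6, 169 and 26.7 CPM against 14.5, 12.7 and 8.67 CPM (log2 difference 3.08, SE 0.33). Klrc1, Klrc2, Klrd1, Klre1 and Klrk1 lie together on chromosome 6 between 129577905 and 129678973 (mm10), and Klrc1 and Klrc2 are near copies between which the authors' counting could have split reads. Ncr1, the NK receptor NKp46, stayed at 16.9, 5.71 and 6.29 CPM in the CD8 cells, against 1034, 891 and 922 CPM in the NK cells of the same grafts, which were chosen by that gene. By cell, Klrc1 was seen in 47.5%, 44.4% and 28.1% of thinned CD8 cells, 3.23%, 3.92% and 0% of CD4 cells and 1.31%, 0.223% and 0% of endothelial barcodes.

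Genes of the naive and central memory state were next. All 15 listed genes could be tested: 7 were lower in CD8 cells, 1 was higher and 7 did not pass, with a median log2 difference of -0.61. The receptor S1pr1, by which lymphocytes leave tissues toward blood and lymph, read 10.7, 24.1 and 23.6 CPM against 91.2, 109.6 and 75.9 CPM, a difference of -2.26 in log2 (SE 0.25, edgeR adjusted p = 0.000557). Endothelial cells also express S1pr1 (56.9%, 51.7% and 49.7% of thinned barcodes), and the summed level of the 8 endothelial markers was 136, 367 and 75.5 CPM in CD8 cells and 294, 432 and 434 CPM in CD4 cells. The part of that RNA in the difference was not tested. Lef1 and Tcf7, a pair of transcription factors of resting and memory T cells, read 57.0, 56.5 and 50.3 CPM against 112, 156 and 106 CPM, and 79.2, 77.4 and 88.1 CPM against 124, 158 and 184 CPM. Both were lower in CD8 cells in each library and without overlap, with log2 differences of -1.17 (SE 0.18, edgeR adjusted p = 0.00252) and -0.89 (SE 0.16, edgeR adjusted p = 0.00618). Without replicate 2 neither call held (edgeR adjusted p = 0.0723 and 0.107). Il7r, the receptor chain for the survival cytokine interleukin 7, read 108, 94.6 and 126 CPM against 203, 259.6 and 195 CPM (log2 difference -1.01, SE 0.17, edgeR adjusted p = 0.00501), a call not kept without replicate 1 (edgeR adjusted p = 0.0629) or replicate 2 (edgeR adjusted p = 0.0966), nor in cells without the 9 further cell cycle genes, where the log2 difference was -0.23 (edgeR adjusted p = 0.687).

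Klf2, a transcription factor that drives S1pr1, had a difference of -0.79 in log2 (SE 0.17, edgeR adjusted p = 0.0149), -0.67 without replicate 2 (edgeR adjusted p = 0.156) and -0.04 against CD4 cells with at least 2 Cd4 UMIs. Il6ra had one of -2.18 (SE 0.37), not kept without replicate 2 (edgeR adjusted p = 0.0645), and Igfbp4 one of -1.67 (SE 0.38), not kept without replicate 1 (edgeR adjusted p = 0.0726) or by DESeq2, and with its sign turned to 0.15 when CD8 cells needed only 1 Cd8 UMI (edgeR adjusted p = 0.809). Dapl1 was the member that was higher, by 2.00 (SE 0.52, edgeR adjusted p = 0.0365), not kept without replicate 2 (edgeR adjusted p = 0.0723).

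Ccr7, the chemokine receptor for entry into lymph nodes, read 106, 62.8 and 33.0 CPM against 87.1, 86.5 and 23.8 CPM (log2 difference 0.00, SE 0.22, edgeR adjusted p = 0.997). The groups overlapped, and the sign of the difference turned in some settings. Bach2, Satb1, Actn1, Foxp1 and Nsg2 did not pass either. By cell, after thinning, Ccr7 was seen in 8.33%, 7.73% and 4.69% of CD8 cells and 16.1%, 8.50% and 6.56% of CD4 cells.

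The CD8 cells were also split by whether a Gzmb UMI remained after thinning, which is a description with no test, since the split was made after values were seen. Cells with Gzmb numbered 83, 165 and 41 and those without 37, 42 and 23. Tcf7 read 12.05, 18.2 and 97.6 CPM in cells with Gzmb and 176, 405 and 283 CPM in cells without. Lef1 read 42.2, 39.4 and 61.0 CPM against 162, 167 and 130.4 CPM, and Bach2, a repressor of effector genes, 102, 106 and 85.4 CPM against 229.7, 238 and 239 CPM. In each library the cells without Gzmb thus held more of these 3 genes, but on few UMIs. In replicate 3 Lef1 had 5 UMIs with Gzmb and 6 without, and Bach2 7 and 11, and in replicate 1 Tcf7 had 2 and 13. Ccr7 read 36.1, 27.3 and 61.0 CPM with Gzmb and 149, 131 and 0 CPM without. In replicate 3 its values were 5 UMIs with Gzmb and 0 without, too few to give a direction. Prf1 was higher with Gzmb, at 542, 388 and 378 CPM against 81.1, 47.6 and 65.2 CPM without, as was Gzma, at 922, 1552 and 1427 CPM against 54.1, 71.4 and 21.7 CPM. Trac had no common direction, at 669, 661 and 512 CPM against 689, 607 and 717 CPM. Satb1, a chromatin organiser of young T cells, was higher without Gzmb in replicates 1 and 2 and lower in replicate 3.

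**Figure D4:**
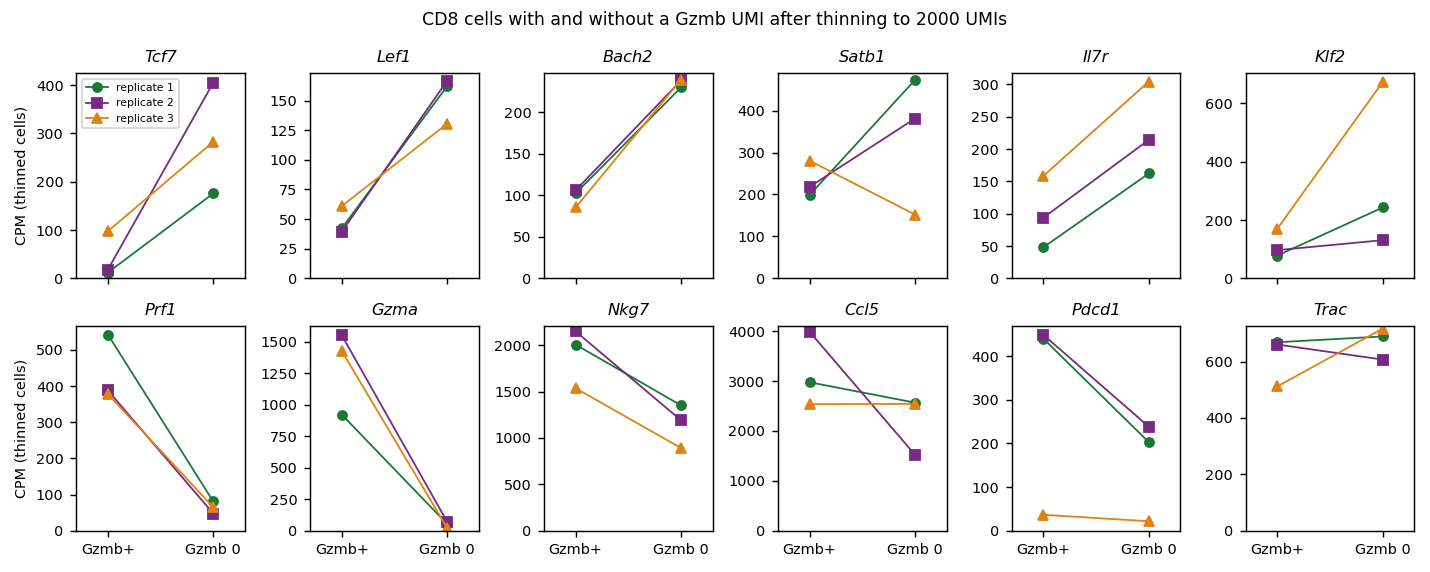
Level (y axis, CPM after thinning each cell to 2000 UMIs) of 12 genes in CD8 cells with a Gzmb UMI and with none, with 1 line per allogeneic library. Tcf7, Lef1, Bach2, Il7r and Klf2 climb toward the cells without Gzmb in all 3 libraries, Prf1 and Gzma fall, and Trac shows no common direction.

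The list of inhibitory receptors and exhaustion genes was split. All 15 could be tested, with 5 higher in CD8 cells, 4 lower, 6 not passing and a median log2 difference of -0.18. Cd160, a receptor of cytotoxic lymphocytes, read 175, 148 and 253 CPM against 20.7, 5.77 and 2.17 CPM (log2 difference 4.36, SE 0.36, edgeR adjusted p = 6.98e-05). Havcr2, TIM-3, a receptor of strongly activated and exhausted cells, read 215, 169 and 109 CPM against 89.1, 68.1 and 4.34 CPM. Each CD8 library was above all CD4 libraries, and the log2 difference was 1.66 (SE 0.31, edgeR adjusted p = 0.00774), a call that was not kept without replicate 1 (1.96, edgeR adjusted p = 0.0602). Cd244a, a receptor also present on NK cells, had a difference of 2.92 in log2 (SE 0.43), and Nr4a2, a transcription factor induced by receptor signals, 1.09 (SE 0.21, edgeR adjusted p = 0.00921), which did not hold without replicate 1 (edgeR adjusted p = 0.0513).

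Pdcd1, the gene of PD-1, read 410.4, 453 and 70.8 CPM in CD8 cells and 267, 286 and 65.0 CPM in CD4 cells. Its level was far lower in replicate 3 in both classes, the groups overlapped, and the log2 difference of 0.59 (SE 0.14, edgeR adjusted p = 0.0247) was not kept without replicate 1 (edgeR adjusted p = 0.198) or without replicate 2 (edgeR adjusted p = 0.296). It was 0.18 against CD4 cells with at least 2 Cd4 UMIs and 0.16 in cells without the 9 further cell cycle genes. Lag3 read 247, 167 and 89.7 CPM against 299, 256 and 32.5 CPM, with a difference of -0.12 in log2 (SE 0.25, edgeR adjusted p = 0.820) that was -0.41 without replicate 3 (edgeR adjusted p = 0.0205). Ctla4, the inhibitory receptor that competes with CD28, was lower in CD8 cells at 424, 371 and 140.0 CPM against 831, 868 and 496 CPM (log2 difference -1.26, SE 0.15, edgeR adjusted p = 0.000746). Tigit, a further inhibitory receptor, read 48.1, 45.7 and 14.2 CPM against 95.4, 112 and 26.0 CPM (log2 difference -1.09, SE 0.20, edgeR adjusted p = 0.00639), not kept without replicate 1 (edgeR adjusted p = 0.0624) or 2 (edgeR adjusted p = 0.138). Cd200r1 (-3.28, SE 0.61) and Tox2 (-2.49, SE 0.46) were lower, Tox2 not without replicate 1 (edgeR adjusted p = 0.0907). Tox, a transcription factor of the exhausted state, did not pass, at 277, 184 and 84.9 CPM against 323, 258 and 273 CPM (log2 difference -0.66, SE 0.22, edgeR adjusted p = 0.0835). Neither did Entpd1, Btla, Cd101 and Cd38.

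Cells that carried several inhibitory receptors were common in replicates 1 and 2. Pdcd1 and Havcr2 were found together in 44.8%, 35.7% and 13.6% of CD8 cells without thinning, and Pdcd1, Havcr2 and Lag3 in 40.3%, 24.0% and 9.09%. After thinning Pdcd1 was seen in 43.3%, 46.9% and 6.25% of CD8 cells and 27.4%, 35.3% and 13.1% of CD4 cells, with 1.31%, 0.445% and 0% in endothelial barcodes. Replicate 3 thus had the fewest Pdcd1 cells, and there the CD8 share was below the CD4 share. Tcf7 and Pdcd1, a pair that marks exhausted cells able to renew themselves, were found in the same cell in 12.7%, 9.95% and 12.1% without thinning. Singly, Tcf7 was found in 19.4%, 19.5% and 42.4% and Pdcd1 in 66.4%, 68.8% and 31.8%. Whether the pair met more often than these single shares would give was not tested, so the overlap is not a count of such cells.

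Transcription factors of effector and memory cells gave 3 higher, 7 lower and 7 not passing among 17 tested of 19 (median log2 difference -0.20). Eomes, a T-box factor of CD8 and NK cells, read 28.5, 19.7 and 17.3 CPM in CD8 cells and 0, 0 and 2.17 CPM in CD4 cells, a pooled ratio of 40.2 (counting interval 6.99 to 1610). Runx3, which silences Cd4 in the CD8 lineage, read 395, 301 and 182 CPM against 141, 193 and 88.9 CPM (log2 difference 1.06, SE 0.17, edgeR adjusted p = 0.00380), not kept without replicate 1 (edgeR adjusted p = 0.0631). Irf8 had a difference of 1.24 in log2 (SE 0.15). Maf, a factor of helper and interleukin-10-producing cells, read 16.9, 12.1 and 25.2 CPM against 479, 459 and 349 CPM, the largest fall in this list (log2 difference -4.67, SE 0.23, edgeR adjusted p = 2.31e-06). Zbtb7b, the factor of the CD4 lineage known as ThPOK, read 4.45, 3.17 and 6.29 CPM against 41.5, 34.6 and 26.0 CPM (log2 difference -2.95, SE 0.40). Prdm1, the gene of the effector factor Blimp-1, added after its values were seen, was also lower in CD8 cells (log2 difference -1.06). That call was not kept without replicate 1 (edgeR adjusted p = 0.0915), without replicate 2 (edgeR adjusted p = 0.165) or by DESeq2. Tbx21, T-bet, which drives the interferon gamma program, added after its values were seen, read 72.1, 72.4 and 77.1 CPM against 91.2, 69.2 and 49.9 CPM and did not pass (log2 difference 0.10, SE 0.20, edgeR adjusted p = 0.813).

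Co-stimulatory receptors were mostly lower: of 11 tested, 6 were lower, 2 higher and 3 did not pass (median log2 difference -0.82). Tnfrsf4, OX40, a survival receptor of activated T cells, read 57.0, 41.9 and 75.5 CPM against 684, 744 and 379 CPM (log2 difference -3.40, SE 0.27, edgeR adjusted p = 5.5e-05). Tnfrsf18, GITR, had a difference of -1.62 in log2 (SE 0.16), Icos -1.25 (SE 0.16), and Slamf1 -1.15 (SE 0.16). Tnfrsf9, 4-1BB, a receptor prominent on activated CD8 cells and added after its values were seen, read 448, 319.9 and 352 CPM against 253, 185 and 314 CPM. It was higher in each library, the groups did not overlap, and the log2 difference was 0.64 (SE 0.15, edgeR adjusted p = 0.0224), not kept without replicate 1 (edgeR adjusted p = 0.185) or 2 (edgeR adjusted p = 0.213), and 1.20 against CD4 cells without Foxp3. Of the chemokine receptors and integrins 14 of 18 could be tested, with 6 lower in CD8 cells, none higher and a median of -0.47. Ccr8 (-2.93, SE 0.58), Cxcr4 (-1.54, SE 0.25), Ccr2 (-0.80, SE 0.18) and Itgb7 (-0.77, SE 0.17) were lower, Cxcr4 not without replicate 2 (edgeR adjusted p = 0.0723). Cxcr3 and Cxcr6, receptors for entry into inflamed tissue and added after their values were seen, did not pass, Cxcr6 at 377, 363 and 131 CPM against 355, 362 and 41.2 CPM.

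Helper and regulatory CD4 genes were mostly lower, 6 of 9 tested, none higher and a median of -1.38. Foxp3, the factor of regulatory T cells, read 6.23, 1.27 and 4.72 CPM in CD8 cells and 31.1, 30.0 and 39.0 CPM in CD4 cells. Izumo1r, folate receptor 4, had a difference of -2.79 in log2 (SE 0.17). Of 22 interferon-response genes 1 was higher, 6 lower and 15 did not pass (median -0.61). The gene that rose, Ly6c2, which encodes a surface protein of memory CD8 cells, read 156, 182 and 189 CPM against 35.2, 25.4 and 39.0 CPM (log2 difference 2.49, SE 0.20, edgeR adjusted p = 5.5e-05). Ifi27l2a, an interferon-induced gene, read 778, 828 and 1326 CPM against 2256, 2383 and 4071 CPM (log2 difference -1.52, SE 0.08, edgeR adjusted p = 3.93e-06). Ifit1 had a difference of -1.45 in log2 (SE 0.30), but -0.40 without replicate 3 (edgeR adjusted p = 0.586). No member of the class I presentation list (10 tested), the glycolysis list (14 tested) or the cell cycle list outside the choice (14 tested) passed in either direction. Of 12 ribosomal and translation genes 7 were higher and none lower, with a median of 0.26. Genes induced by T cell receptor signals gave 3 of 8 higher and none lower, and T cell receptor chains and signalling 4 of 17 lower and none higher.

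Outside the lists, the genes with the largest differences at a level of at least 50 CPM were named by a fixed rule. Crtam, an adhesion receptor of activated CD8 and NK cells, read 164, 146 and 294 CPM against 8.29, 5.77 and 19.5 CPM (log2 difference 4.26, SE 0.23, edgeR adjusted p = 3.93e-06). Jaml, a junctional adhesion protein, read 314, 271 and 190.3 CPM against 68.4, 40.4 and 26.0 CPM (log2 difference 2.60, SE 0.18), and Zbtb32, a repressor induced in activated lymphocytes, 100.6, 89.5 and 148 CPM against 20.7, 17.3 and 15.2 CPM (log2 difference 2.62, SE 0.24). Crabp2, Fgf13, Atp8b4, Magohb and Shmt2 were also among the 10 largest rises, at log2 differences of 1.90 to 2.72. The remaining pair, Gm44174 (log2 difference 7.19, SE 0.48) and Gm44175 (5.28, SE 0.42), are long noncoding RNA genes at chromosome 6, 71353035 to 71373284 on the plus strand and 71354351 to 71360829 on the minus strand (mm10, GENCODE M21). They overlap each other on opposite strands and lie between Cd8b1 (71322788 to 71337494) and Cd8a (71373427 to 71379173), the genes by which the cells were chosen. Whether the counting used strand is not given, so their reads cannot be told apart, and their level is a description. Gm44174 read 138, 119 and 23.6 CPM in CD8 cells and 2.07, 0 and 0 CPM in CD4 cells. Among the largest falls were Asb2 (-3.76, SE 0.46), Podnl1 (-3.31, SE 0.24), Tspan32 (-3.23, SE 0.29), St6gal1 (-2.87, SE 0.34) and Tbc1d4 (-2.82, SE 0.23).

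Markers of other cell types were read in the same sums. Of 12 monocyte and macrophage markers 10 could be tested and none passed, with a summed level of 1082 to 2658 CPM in CD8 cells and 2010 to 2382 CPM in CD4 cells. The 8 fibroblast markers summed to 180 to 3799 CPM and 49.8 to 6109 CPM, each time highest in replicate 3, and none passed. The 12 heart muscle markers summed to 75.5 to 293 CPM and 69.4 to 209 CPM, none of 6 tested passing, and at least 3 UMIs of them were found in 19.4%, 10.4% and 9.09% of CD8 cells. Erythroid and platelet markers were lower in CD8 cells, 2 of 2 tested, at 53.9 to 73.9 CPM against 104 to 386 CPM, and of 6 endothelial markers tested 1 was lower, Pecam1 (-1.31). Trgc2, a gamma chain gene, was the gamma delta T cell marker that could be tested and was higher, at 15.1, 58.4 and 12.6 CPM against 2.07, 2.31 and 8.67 CPM, while Trdc read 0.890, 11.4 and 9.44 CPM against 0 in the CD4 sums. The part of these cells' RNA in the results was not tested. Without cells that held at least 3 heart muscle UMIs 424 genes were higher and 537 lower.

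Against the 1083 Mki67/Top2a-positive CD8 cells of the allografts, the CD8 cells held more resting-state and chemokine RNA, while Gzmb and Prf1 did not pass in either direction. By library there were 452, 549 and 82 positive cells, which made up 77.1%, 71.3% and 55.4% of CD8 cells, and among CD4 cells 63.9%, 54.7% and 40.0% were positive. The difference of 15.1 percentage points ± 1.68 (SD, n = 3) was positive in 3 of 3 libraries. It rests on genes of the choice, so it is a description and not a result. A cell with more UMIs is more likely to show a Mki67 or Top2a UMI, and the positive cells were deeper, with medians of 16648.5, 13051 and 22457 UMIs. After thinning to 2000 UMIs the shares were 54.2%, 47.0% and 23.4% of CD8 cells and 41.5%, 38.7% and 22.4% of CD4 cells, so the difference nearly closed in replicate 3.

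Of 10295 genes tested in this comparison 741 were higher in CD8 cells without Mki67 or Top2a (7.2%) and 1095 lower (10.6%). In cells thinned to 2000 UMIs the counts were 267 and 403. The 18 cell cycle genes follow from the choice and are not counted as a result. Gzmb read 3078, 3557 and 3309 CPM in the positive cells, a log2 difference, without minus with, of -0.11 (SE 0.07, edgeR adjusted p = 0.347), and Prf1 had one of 0.17 (SE 0.11, edgeR adjusted p = 0.352). Of the cytotoxic list 6 of 15 were higher and none lower, among them Gzma (0.62, SE 0.08, edgeR adjusted p = 0.000358), Ctsw (0.86, SE 0.10) and Nkg7 (0.43, SE 0.06). Of the cytokines 6 of 9 were higher, led by Ccl3 (1.95, SE 0.39), Ccl4 (1.70, SE 0.13), Xcl1 (1.62, SE 0.21) and Ccl5 (1.49, SE 0.25). Ifng had a difference of 1.59 in log2 (SE 0.43, edgeR adjusted p = 0.0248), which was 0.78 without replicate 1, and DESeq2 did not call it (adjusted p = 0.283). It read 289.9, 390.1 and 9279.6 CPM in the positive cells, so in replicate 3 both classes were high.

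Of the 15 naive-state genes 11 were higher in the cells without Mki67 or Top2a and 1 was lower, with a median log2 difference of 0.83. Tcf7 read 34.7, 34.9 and 17.8 CPM in the positive cells, a difference of 1.34 in log2 (SE 0.18, edgeR adjusted p = 0.000439). Nsg2 (2.16, SE 0.35), Bach2 (0.83, SE 0.12) and Il7r (0.93, SE 0.25) were higher too, Il7r by 0.56 without replicate 3. Igfbp4, the member that was lower (-1.62, SE 0.33), is a gene that fibroblasts also express, and the call was not kept without replicate 3 (-0.52, edgeR adjusted p = 0.614). Pdcd1 was lower, at 410.4, 453 and 70.8 CPM against 552, 639 and 111 CPM (log2 difference -0.53, SE 0.08, edgeR adjusted p = 0.00122), while Cd160 (1.34, SE 0.11), Havcr2 (0.41, SE 0.11) and Lag3 (0.58, SE 0.11) were higher, Lag3 not without replicate 1 (edgeR adjusted p = 0.0607). Of the inhibitory list as a whole 5 of 13 were higher and 1 lower. T cell receptor chain and signalling genes were higher in 14 of 17 (median 0.37), such as Trac (0.37, SE 0.08), and 6 of 14 glycolysis genes were lower and none higher, such as Tpi1 and Gapdh. Of 10 macrophage markers tested 6 were higher in the cells without Mki67 or Top2a, and their part in these results was not tested.

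A last comparison set the CD8 cells against NK cells of the same libraries, 35, 61 and 59 barcodes with no CD3 UMI and at least 2 UMIs of Ncr1 and Klrb1c. The NK sums also held RNA of other cells. The 9 B and plasma cell markers summed to 39766, 111 and 85.7 CPM in them, and to 121, 208 and 88.1 CPM in the CD8 cells. The 12 monocyte and macrophage markers summed to 4412, 5234 and 3097 CPM in the NK cells. The part of that RNA in this comparison was not tested. Of 7500 genes tested 313 were higher in the CD8 cells (4.17%) and 402 lower (5.36%). Of the cytotoxic list 1 of 14 was higher and 5 were lower. Gzma read 6797, 12629.8 and 7619 CPM in NK cells (log2 difference, CD8 minus NK, -3.26, SE 0.15, edgeR adjusted p = 3.85e-07) and Prf1 1059.5, 1462 and 1109.6 CPM (-1.65, SE 0.19, edgeR adjusted p = 0.000137). Gzmb read 1013, 2887 and 2269 CPM and did not pass (0.78, SE 0.24, edgeR adjusted p = 0.0615), though it did without replicate 3 (1.04, edgeR adjusted p = 9.63e-07), with no filter, with DESeq2's size factors in edgeR, without doublets and after thinning. Gzmk was the member that was higher in CD8 cells (1.83, SE 0.27). Ifng was also higher (3.03, SE 0.41, edgeR adjusted p = 0.000503), at 169, 439.8 and 853 CPM in NK cells.

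Of 11 inhibitory and exhaustion genes tested against NK cells 4 were higher in the CD8 cells, 1 was lower and 6 did not pass. Havcr2 read 5.12, 5.83 and 8.36 CPM in NK cells (log2 difference 4.47, SE 0.36, edgeR adjusted p = 1.37e-05) and Lag3 30.7, 20.4 and 18.8 CPM (2.80, SE 0.28). Both were higher in the CD8 cells in every library. Ctla4 (1.99, SE 0.37) and Pdcd1 (2.05, SE 0.41) were higher too, Pdcd1 not without replicate 1 (edgeR adjusted p = 0.0808) or by DESeq2. Cd244a was lower, at 246, 163 and 96.1 CPM in NK cells (-2.52, SE 0.26). Klrc1 did not pass, at 456, 369.9 and 224 CPM in NK cells (-0.09, SE 0.19, edgeR adjusted p = 0.813), whereas Klre1 was lower in CD8 cells (-3.78, SE 0.24). Of 10 NK-type receptor genes tested 8 were lower in the CD8 cells and none higher. Ccr7 was higher in the CD8 cells (3.88, SE 0.53). Eomes was lower (-2.21, SE 0.28), at 97.3, 84.5 and 142 CPM in NK cells. The comparisons with CD4, Mki67/Top2a-positive and NK cells share the same CD8 sums, so they are not independent of each other.

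T cell receptor variable genes were read in a minority of the cells, since the 3′ kit captures the other end of the transcript. At least 1 UMI of a Trbv gene was found in 27.6%, 22.2% and 27.3% of the CD8 cells, spread over 15, 19 and 12 Trbv genes. The most frequent in replicate 1, Trbv1, was in 7 of 37 such cells. No clonal make-up can be read from these counts.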

How the data were processed

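Single-cell RNA was measured in 4 libraries of transplanted mouse hearts at day 5, with a 3′ kit of the Chromium platform, per the labels' protocols. The deposited values are UMI counts per gene and barcode in filtered matrices of 34097 genes. Reads were counted against mm10 with Cell Ranger, version 3.1.0 per the submitters' processing notes and 6.1.0 per the file headers, and the source of that gap is unknown. Whether counting used strand is stated nowhere in the sources used here. No column of another sample was used.

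Cells were chosen by their counts as described above, with 13 mitochondrial genes in the limit of 20%. NK barcodes had at least 2 UMIs of Ncr1 and Klrb1c and no CD3, and endothelial barcodes at least 2 of Pecam1 and Cdh5, no CD3, no Ptprc and under 3 of Col1a1 and Col3a1. Fibroblast barcodes had at least 3 of Col1a1 and Col3a1, no CD3, no Ptprc and under 2 of Pecam1 and Cdh5. Counts were summed per library and class. edgeR 4.0.16 in R 4.3.3 tested the sums of the 3 allogeneic libraries by quasi-likelihood, with TMM scaling, its low-count filter and the library as a block. P-values were adjusted by Benjamini-Hochberg over all genes tested other than those of the choice. The SE is the log2 difference divided by the root of F and is approximate. Classes of the same library come from 1 graft suspension, which pairs them. Deviations from the class means correlated within a library at 0.516, 0.453 and 0.692 for CD4 cells and at 0.252 or more for the other classes. Between replicates 1 and 2 they also correlated (0.440 and 0.312 for CD4 cells), and the NK value within replicate 2 (0.252) was below that of its CD8 cells with the NK cells of replicate 1 (0.280). Tested on simulated data for the CD4 comparison (8427 genes), the fit recovered 11% of 2-fold and 81% of 4-fold changes with 2 false calls. The simulation gave every gene the same fixed spread, which was not taken from these data. It changed only genes above a count limit, so these figures need not hold for the real fit or for genes of low count. Thinning drew 2000 UMIs per cell without replacement. Doublets were kept, and as an alternative removed by scrublet scores (scanpy 1.11.5, 0.8% per 1000 barcodes), which took 4, 9 and 5 of the CD8 cells. Other alternatives were DESeq2 1.42.0, its size factors in edgeR, no filter, no block, left-out libraries and other limits on UMIs, mitochondrial share, Cd4, Cd8 and heart muscle transcripts. Leaving out Foxp3 cells or cells with 9 further cell cycle genes, and thinning in the comparisons with Mki67/Top2a-positive and NK cells, were chosen after seeing the data. Scripts ran in Python 3.11.15 with scipy 1.17.1 and matplotlib 3.10.9.

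The members and gene lists were chosen with earlier results of these data known. Named genes were all members of the cytotoxic, naive and inhibitory lists, up to 5 of each other list with the largest differences, and outside the lists the 10 largest rises and 10 largest falls with at least 50 CPM in the higher class and 1 direction in all 3 libraries. Genes named beyond that rule, such as Ccl3, Ccl4, Ccl5, Tnf, Klrd1, Tbx21, Irf8, Runx3, Prdm1, Tnfrsf9, Cxcr3 and Cxcr6, were chosen after their values were seen. Results on 1 gene of the naive list are not reported here.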

Additional observations from a re-analysis of the deposited data

How the results depend on the processing

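Precision is limited by 3 libraries and 66 CD8 cells in replicate 3. Of 77 genes examined against CD4 cells 70 were called, and 69 of these never turned direction where they were tested. Over the alternatives in which a gene was tested, 46 stayed called under all but the missing block and left-out libraries, and 31 under all. Against Mki67/Top2a-positive cells 2 of 14 calls, and against NK cells 8 of 12, stayed under all, counted in the same way. A gene that an alternative filtered out or gave no adjusted p-value was not counted as lost there, so these counts are upper limits. Calls gained against CD4 cells were those of Fasl in 6 settings, of Tox in 4, and of Gzmk and Lag3 without replicate 3. The causes of the moves were not tested.

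Genes higher and lower in CD8 than CD4 cells numbered 28 and 44 with no replicate block (34 of the named calls were lost), 131 and 161 by DESeq2, 200 and 230 with at least 2 Cd4 UMIs, 133 and 149 without cells of 9 other cell cycle genes, and 212 and 220 after thinning. With no filter 722 were higher. With libraries left out in turn they ranged from 95 to 599 higher and from 127 to 625 lower. Against Mki67/Top2a-positive cells they numbered 23 and 252 without the block, 290 and 535 by DESeq2, 267 and 403 after thinning, and 329 to 969 and 543 to 1345 with libraries left out. Against NK cells they numbered 65 and 141 without the block, 128 and 222 by DESeq2, 163 and 203 after thinning, and 109 to 638 and 179 to 772 with libraries left out, and 538 were higher with no filter.

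DESeq2 lost the calls of Gzma, Nkg7, Ccl3, Igfbp4, Pdcd1, Tigit, Prdm1, Ifit1 and the integrin gene Itga1, not described above, against CD4 cells. Thinning lost those of Tcf7, Klf2, Tigit, Prdm1 and Ifit1, and at least 2 Cd4 UMIs those of Ccl3, Tcf7, Il7r, Klf2, Dapl1, Pdcd1, Havcr2, Nr4a2, Prdm1, Tnfrsf9, Isg15 and Foxp3. Against Mki67/Top2a-positive cells DESeq2 lost the calls of Ifng and Igfbp4, and against NK cells those of Xcl1 and Pdcd1. Without cells of 9 other cell cycle genes the calls of Srgn, Lef1, Il7r, Klf2, Il6ra, Dapl1, Pdcd1, Cd244a, Prdm1, Cxcr4, Slamf1, Tnfrsf9, Ifit1 and Isg15 were lost.

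Reversed log2 differences from CD4 cells were, with libraries left out, Gzmk from -0.0562 to 0.68, Ccr7 from -0.17 to 0.37, Lag3 from -0.41 to 0.28 and Tbx21 from -0.0703 to 0.33. Ccr7 was -0.0590 and Igfbp4 0.15 with at least 1 Cd8 UMI. Ccr7 was also -0.15 without doublets, -0.29 after thinning and -0.0482 without cells rich in heart muscle transcripts, where Lag3 was 0.0749. Lag3 was 0.16 by DESeq2, and Tbx21 -0.25 with at least 2 Cd4 UMIs. Against Mki67/Top2a-positive cells Prf1 ranged from -0.0265 to 0.33 and S1pr1 from -0.18 to 0.44, and S1pr1 was -0.00197 with no filter. Against NK cells Klrc1 ranged from -0.22 to 0.0788 and was 0.0189 with no filter.

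With at least 1 Cd8 UMI the mean share of CD3 cells was 14.9%. Without thinning the mean shares of CD8 cells with a UMI were 52.3% for Prf1, 57.7% for Ifng, 27.1% for Tcf7, 55.7% for Pdcd1 and 40.1% for Havcr2. Allografts and isograft were not tested by gene, since the isograft held 0 of these cells.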
